A study of Mus musculus with 106 samples.

Results

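The comparison is between single cells of Blimp1 knockout embryos and single posterior mesoderm cells of wild-type embryos, both of the C57BL/6 strain and both at the E/MB stage. Members were taken by sample title: 12 knockout cells and 10 mesoderm cells. These 22 cells make up 2 of the 11 groups of the series, whose 9 other groups hold a further 84 cells. The knockout cells, of genotype Blimp1 (-/-), held the non-functional transcript of the Blimp1-null allele and Oct4 (Pou5f1). The mesoderm cells came from the base of the allantois, and were negative for Blimp1 and positive for Oct4 and Hoxb1. Each cell was lysed on its own, its cDNA was amplified by PCR, and 1 Affymetrix array was hybridised per cell. Embryo fragments holding germ cells or their precursors were dissociated, single cells were picked at random, and each cell's group was decided by screening its amplified cDNA for these transcripts. The other groups are epiblast, precursor, germ cell and Hoxb1-positive wild-type cells and an earlier group of knockout cells; they serve here as a scale for the levels. The labels do not say how many embryos gave these cells, so each group counts as 1 sample: no test was made, and SDs are over cells.

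Blimp1, the product of Prdm1, is a zinc finger repressor without which primordial germ cells do not form in the mouse. It is transcribed in a few cells of the posterior proximal epiblast that would otherwise follow their neighbours into extraembryonic and posterior mesoderm. Posterior mesoderm leaves the primitive streak under Wnt, FGF and BMP signals: Mesp1 and Mixl1 mark its first steps, Msgn1 and Tbx6 the paraxial (presomitic) branch, and Hand1, Foxf1 and Bmp4 the lateral and allantoic branch. The comparison asks how cells that started the Blimp1 programme without a working protein differ from posterior mesoderm of wild-type embryos of the same stage.

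A higher caudal progenitor gene and 3 lower presomitic genes, described below by cell, are shown by the 250 bases before their transcription start, read 5′ to 3′ on the gene's strand (RefSeq, build GRCm38.p6). Nkx1-2 was higher in the knockout cells, and Msgn1, Dll1 and Tbx6 were higher in the mesoderm cells. The windows are chr7:132599638-132599887 (minus strand) for Nkx1-2, chr12:11208949-11209198 (minus strand) for Msgn1, chr17:15375824-15376073 (minus strand, the first of 2 listed starts) for Dll1 and chr7:126781233-126781482 (plus strand) for Tbx6. Capitals mark matches to any of 3 motifs searched on both strands.
Nkx1-2: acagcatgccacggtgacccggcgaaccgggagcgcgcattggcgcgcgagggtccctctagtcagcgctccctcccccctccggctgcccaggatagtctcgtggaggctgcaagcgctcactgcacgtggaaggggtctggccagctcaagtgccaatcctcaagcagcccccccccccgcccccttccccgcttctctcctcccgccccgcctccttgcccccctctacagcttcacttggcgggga
Msgn1: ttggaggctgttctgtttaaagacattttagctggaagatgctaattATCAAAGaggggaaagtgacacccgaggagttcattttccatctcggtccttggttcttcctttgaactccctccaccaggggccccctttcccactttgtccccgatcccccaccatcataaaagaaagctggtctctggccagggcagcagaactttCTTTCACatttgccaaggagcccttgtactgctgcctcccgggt
Dll1: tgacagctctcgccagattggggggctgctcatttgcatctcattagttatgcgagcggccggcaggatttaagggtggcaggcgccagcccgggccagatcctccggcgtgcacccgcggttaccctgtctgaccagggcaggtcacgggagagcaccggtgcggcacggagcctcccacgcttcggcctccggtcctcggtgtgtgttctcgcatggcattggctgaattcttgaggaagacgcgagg
Tbx6: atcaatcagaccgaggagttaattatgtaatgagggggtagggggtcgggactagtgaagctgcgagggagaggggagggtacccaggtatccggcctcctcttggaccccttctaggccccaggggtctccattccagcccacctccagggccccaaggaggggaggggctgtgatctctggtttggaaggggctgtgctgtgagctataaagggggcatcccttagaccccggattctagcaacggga
The motifs were CTTTGAT or CTTTGTT, bound by TCF/LEF factors of the Wnt pathway, GGTGTGA, a T-box motif, and GTGAAAG, the core of the Prdm1 motif. Of 32851 such windows, 8.1% held the TCF/LEF letters, 3.3% the T-box letters and 3.6% the Prdm1 letters. The Msgn1 window held 1 TCF/LEF match, from 203 to 197 bases before the start, and 1 Prdm1 match, from 44 to 38 bases before it, with no overlap between them. The Nkx1-2, Dll1 and Tbx6 windows held no match to these letters. A match is a string of letters and not a bound site. Akap12, the gene with the largest difference, is not in the promoter table.

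The mesoderm arrays stood apart from the rest of the series before any gene was compared. Bacterial transcripts spiked into every hybridisation averaged 9.74 ± 0.31 log2 signal in the knockout cells and 11.39 ± 0.33 in the mesoderm cells (SD over cells), and no mesoderm cell (lowest 10.93) overlapped any of the other 96 cells (highest 10.90). The gap between actin probe sets at the 3′ and the 5′ end, which widens as cDNA gets shorter, was 2.87 ± 0.55 log2 units in knockout cells and 1.57 ± 0.46 in mesoderm cells. Probe sets above the detection limit numbered 10698 to 14236 per knockout cell and 9386 to 12446 per mesoderm cell. No label or header names an array run, so it is not known whether these arrays were processed separately. Another spiked control, lys, was level, at 11.44 ± 0.46 log2 signal in knockout cells and 11.47 ± 0.86 in mesoderm cells. The level of the hybridisation spikes coincides with the group, as does the genotype, so array, genotype and cell type cannot be told apart. The 9 other groups, whose spike levels overlapped those of the knockout cells, serve as the scale: for the leading genes and the gene lists, a mesoderm mean outside their range is stated. The scale itself was divided for some genes. Abca4 was detected in every epiblast, precursor and germ cell, but in 0 Hoxb1-positive wild-type and 0 earlier knockout cells. Here it was detected in 1 of 12 knockout and 6 of 10 mesoderm cells. Ppp2cb ran the other way, with 0 epiblast, 19 earlier knockout, 11 knockout and 8 mesoderm cells. The cause of this split was not tested. Markers of posterior mesoderm and caudal progenitors were detected in both knockout and mesoderm cells, but not evenly. Hoxb1, for which the mesoderm cells were chosen, was detected in all 12 knockout and all 10 mesoderm cells. Mesp1 was detected in 11 knockout and 10 mesoderm cells, Bmp4 in 12 and 9, Nkx1-2 in 12 and 7, and Akap12 in 11 and 3. Msgn1 was detected in 3 and 8, and Tbx6 in 4 and 9. Wild-type germ cells of the same stage also held Mesp1 in 6 of 8 cells and Bmp4 in 7 of 8. T is not among the genes with a probe set of a single symbol. Of other cell types' markers, 0 of 16 for blood and endothelium, 0 of 12 for endoderm and 0 of 8 for trophoblast differed by 1 log2 unit. Pecam1, Cdh5, Gata1, Afp and Elf5 were detected in 0 cells of either group, but other members were detected in both: Etv2 in 7 knockout and 8 mesoderm cells, Gata2 in 8 and 8, Apoa1 in 10 and 2, Sox17 in 5 and 2, Ascl2 in 7 and 10, and Plac1 in 9 and 5. The mean log2 signal over each list ran from 6.31 to 6.76 in knockout and 6.27 to 6.87 in mesoderm cells for blood and endothelium, 6.16 to 6.52 and 6.13 to 6.49 for endoderm, and 6.21 to 6.92 and 6.24 to 6.98 for trophoblast.

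**Figure D1:**
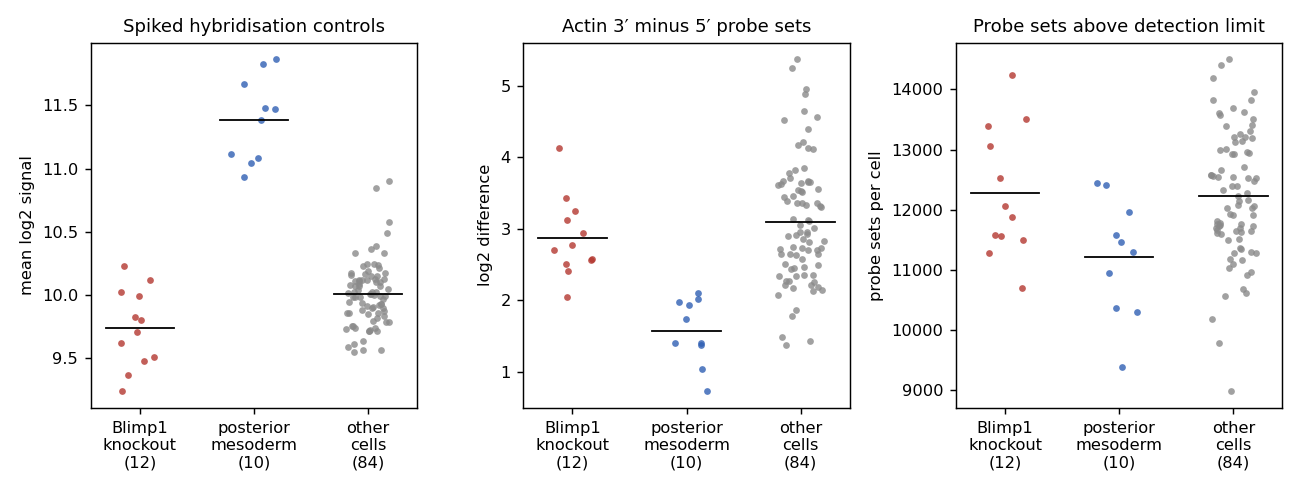
Array measures per cell: spiked hybridisation controls (mean log2 signal), actin 3′ minus 5′ signal (log2 difference) and probe sets above the detection limit, for 12 knockout, 10 mesoderm and 84 other cells, with 1 point per cell and a bar at the mean. All 10 mesoderm cells lie above the other 96 in the spiked controls.

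Signals below a floor of 6.13 log2 units, set from olfactory receptor and similar genes, were raised to it; a gene counted as detected where its signal exceeded the 95th percentile of those genes in that cell. A difference is the mean log2 signal of knockout cells minus that of mesoderm cells, and 1 log2 unit, a 2-fold change of signal, is used as the size worth naming. Of 18193 genes, 1253 (6.89%) were higher in knockout cells by at least this much and 234 (1.29%) were lower. Every knockout cell lay above every mesoderm cell for 100 genes (0.550%) and below for 44 (0.242%). Broadly detected genes, found in 50% or more of the cells of the series, numbered 7250. Of these 15.5% were higher, 2.40% were lower, 1.28% had every knockout cell above and 0.414% every knockout cell below the mesoderm cells, and the median difference was 0.15 with quartiles of -0.25 and 0.69. The surplus of higher genes depended on the scaling: 84.3% of the genes past 1 log2 unit were higher as deposited, 57.1% after each cell's median was set equal, which lowers every difference by 0.23, and 66.0% after quantile normalisation.

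Most of these differences lay on the mesoderm side of the scale. Of the 1253 genes higher in knockout cells, the mesoderm mean was below all 9 other groups for 867 (69.2%), against 12.6% of all genes. The knockout mean was above all 9 other groups for 153 of them (12.2%), against 5.48% of all genes. Of the 234 lower genes, the mesoderm mean was above all 9 other groups for 156 (66.7%), against 9.85% of all genes. The knockout mean was below all of them for 36 (15.4%), against 8.71% of all genes. For 386 higher and 78 lower genes the mesoderm mean lay inside the range of the other groups, and the named ones are given at the end.

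For genes found in 75% or more of the knockout cells, the 15 largest positive differences ran from 2.41 to 3.27. Akap12, a scaffold that holds protein kinase A and C, had the largest. Its signal was 6.13, 9.80 and 11.49 in knockout cells (lowest, median and highest), against 6.13, 6.13 and 7.31 in mesoderm cells. It was detected in 11 of 12 knockout cells (exact 95% interval 61.5% to 99.8%) and in 3 of 10 mesoderm cells (6.67% to 65.2%). The knockout mean of 9.71 exceeded, and the mesoderm mean of 6.44 fell short of, every other group mean (7.47 to 9.31). A single knockout cell, replicate 7, stood at the floor, so the groups overlapped there.

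Nkx1-2, a homeobox gene of the caudal epiblast, was the most even of the leading genes within the knockout group. Its signal was 10.57, 11.18 and 11.60 in knockout cells (lowest, median and highest), against 6.13, 8.78 and 10.45 in mesoderm cells, a difference of 2.79 with no overlap. All 12 knockout cells were above the detection limit (73.5% to 100%), against 7 of 10 mesoderm cells (34.8% to 93.3%). The 3 mesoderm cells below it, replicates 6, 8 and 9, were at or just over the floor. The knockout mean of 11.13 was above all 9 other groups, the nearest being the wild-type Blimp1+ Hoxb1+ cells of the same stage at 10.51 (4 cells), while the mesoderm mean of 8.33 lay inside their range, which began at 6.13. Nkx1-2 has 2 further probe sets, both near the floor in the 2 groups.

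The other 13 genes of this set have varied functions. Cd24a, a surface glycoprotein of many progenitor cells, averaged 11.61 ± 0.62 in knockout cells and 8.70 ± 1.40 in mesoderm cells with no overlap. Apela, a peptide hormone that binds the apelin receptor in gastrulating embryos, averaged 10.32 ± 0.80 in knockout cells and 7.83 ± 1.51 in mesoderm cells. Myh9, the heavy chain of a non-muscle myosin, averaged 10.94 ± 0.63 in knockout cells and 8.37 ± 1.38 in mesoderm cells. For Apela and Myh9 the mesoderm mean lay inside the range of the other groups. Rbm25, a splicing factor, averaged 10.21 ± 0.44 in knockout cells and 7.00 ± 0.87 in mesoderm cells, where the other groups averaged 9.03 to 10.34, so the mesoderm arrays alone were low. Nufip2, which encodes an RNA-binding partner of the fragile X protein, was detected in all 12 knockout cells and in 0 of 10 mesoderm cells. By this probe set it was at least 3.35-fold higher in knockout cells when mesoderm is set to its detection limits. Another Nufip2 probe set was detected in 6 of 12 knockout and 4 of 10 mesoderm cells, with a difference of 0.51.

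Nusap1 (2.99), a microtubule protein of the mitotic spindle, Firre (2.78), a nuclear long non-coding RNA, and Birc6 (2.76) and Xiap (2.43), 2 inhibitors of apoptosis, belong to the same set by difference. So do Arhgap29 (2.73), Tasor2 (2.52), Utrn (2.44), a relative of dystrophin, and Naa15 (2.41), a subunit of an N-terminal acetyltransferase. In 12 of the 15 genes the mesoderm mean was below all 9 other groups, and in 4 (Akap12, Nkx1-2, Birc6 and Myh9) the knockout mean was above all of them. In 7 every knockout cell lay above every mesoderm cell, against 0.550% of all genes. The 15 were chosen for large differences, which favours such a lack of overlap. These genes have 13 further probe sets that were found in 50% or more of the cells of either group. Of these, 9 differed in the same direction and 4, of Myh9 (2), Xiap and Naa15, in the opposite one.

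**Figure D2:**
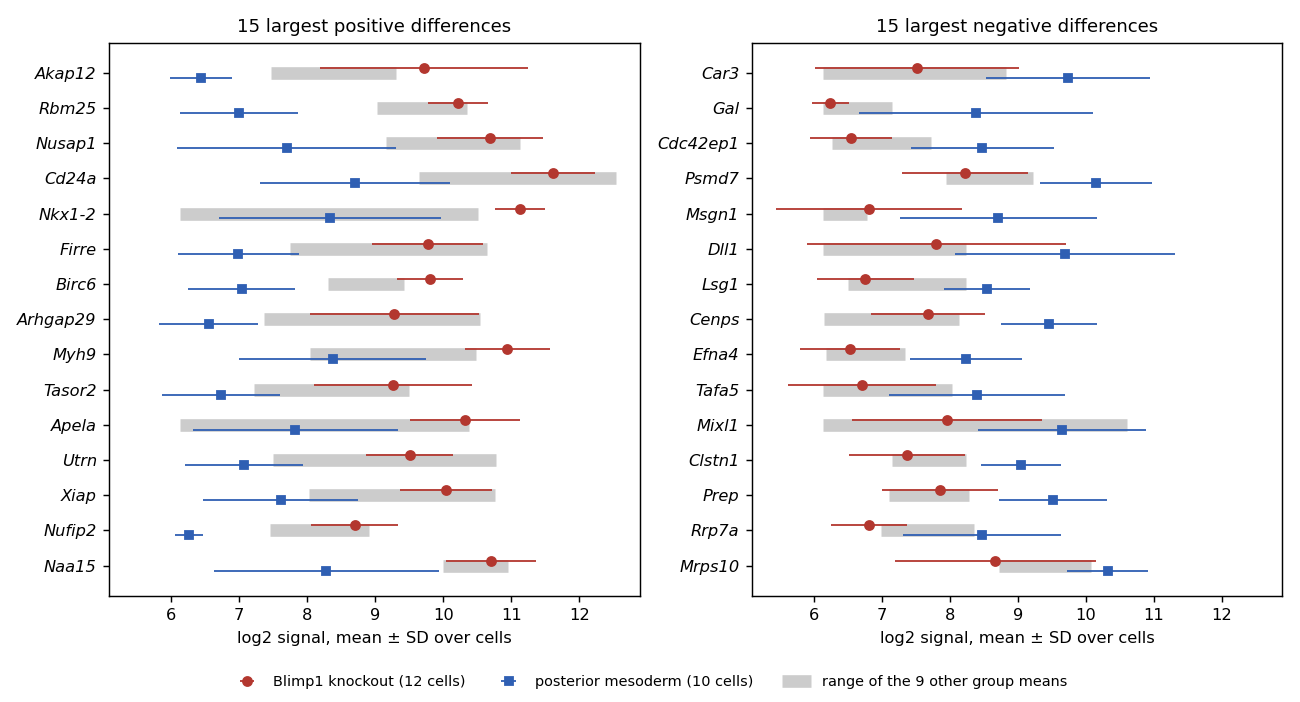
Mean log2 signal ± SD over cells of the 15 largest positive and 15 largest negative differences in 12 knockout cells (circles) and 10 mesoderm cells (squares), with the range of the 9 other group means as a grey bar. In 12 of 15 genes on the left the square lies below the bar, and in 14 of 15 on the right it lies above it.

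For genes found in 75% or more of the mesoderm cells, the 15 largest negative differences ran from -1.65 to -2.21 and none was free of overlap. Gal, which encodes the neuropeptide galanin, was detected in 0 of 12 knockout cells (exact 95% interval 0% to 26.5%) and in 8 of 10 mesoderm cells (44.4% to 97.5%). Its signal was 6.13, 6.13 and 6.94 in knockout cells (lowest, median and highest), against 6.13, 8.35 and 10.82 in mesoderm cells, and it was at least 2.00-fold higher in mesoderm. Car3, a carbonic anhydrase, had the largest difference: 6.13, 6.92 and 10.74 in knockout cells, against 6.77, 10.18 and 10.998 in mesoderm cells. Gal was near the floor in every knockout cell, whereas Car3 was detected in 6 of 12 knockout and 9 of 10 mesoderm cells, so its groups overlapped widely.

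Cdc42ep1, an effector of the GTPase Cdc42, was detected in 1 of 12 knockout cells and 9 of 10 mesoderm cells. Psmd7, a proteasome subunit, averaged 8.22 ± 0.93 in knockout cells and 10.15 ± 0.82 in mesoderm cells. Efna4, an ephrin ligand, was detected in 3 of 12 knockout and 9 of 10 mesoderm cells. Lsg1 (-1.79), Rrp7a (-1.66) and Mrps10 (-1.65) take part in ribosome assembly or the mitochondrial ribosome, Cenps (-1.78) belongs to the kinetochore, and Tafa5 (-1.69), Clstn1 (-1.68) and Prep (-1.66) complete the set beside Msgn1, Dll1 and Mixl1. In 14 of the 15, all but Mixl1, the mesoderm mean was above all 9 other groups. These 15 genes have 3 further probe sets found in 50% or more of the cells of either group, of which 1 differed in the same direction and those of Prep (0.98) and Clstn1 in the opposite one.

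The presomitic and caudal progenitor list was drawn up with the differences of Akap12, Nkx1-2 and Msgn1 known, so its counts only describe it. Of 18 measured, 3 were higher in knockout cells (Akap12, Nkx1-2 and Wnt5a) and 4 were lower (Msgn1, Dll1, Dll3 and Tbx6). The shares over all genes were 6.89% and 1.29%. The list's median difference was 0.05, against 0.15 over broadly detected genes. Msgn1, a basic helix-loop-helix factor of presomitic mesoderm, was 6.13, 6.13 and 9.90 in knockout cells (lowest, median and highest), against 6.13, 9.07 and 10.19 in mesoderm cells. It was detected in 3 of 12 knockout cells (5.49% to 57.2%) and 8 of 10 mesoderm cells (44.4% to 97.5%). The knockout cells that held it, replicates 2, 4 and 12, differed among themselves, since replicate 2 reached 7.08 and the other two 9.90 and 9.43, inside the mesoderm range. In the 9 other groups Msgn1 averaged 6.13 to 6.79, so the mesoderm mean stood well above all 10 others.

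Dll1, a Notch ligand of presomitic mesoderm, was 6.13, 7.07 and 10.98 in knockout cells, against 6.13, 10.13 and 12.02 in mesoderm cells. It was detected in 6 of 12 knockout and 9 of 10 mesoderm cells, and the 3 brightest knockout cells, at 9.99 or more, were near or above the mesoderm median. Tbx6, the T-box factor that commits cells to the paraxial branch, was 6.13, 6.38 and 9.68 in knockout cells, against 6.13, 8.08 and 10.06 in mesoderm cells. It was detected in 4 knockout and 9 mesoderm cells. Dll3, a Notch ligand that acts within the cell, was 6.13, 6.13 and 10.42 in knockout cells, against 6.13, 8.96 and 10.78 in mesoderm cells, and was detected in 5 and 7 cells. All 4 lower genes thus had some knockout cells at mesoderm levels and a larger share at the floor, and for all 4 the mesoderm mean was above the 9 other groups.

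Wnt5a, a Wnt ligand of the posterior embryo, was 6.13, 9.73 and 11.46 in knockout cells, against 6.13, 8.08 and 10.71 in mesoderm cells, a difference of 1.56. The remaining 11 genes of the list differed by less than 1 log2 unit. Rspo3, which amplifies Wnt signals, was detected in 11 knockout and 9 mesoderm cells with a difference of 0.23, Wnt3a in 5 and 6 cells with -0.27, and Sp8 in 5 and 1 cells with 0.95. Lfng and Ripply2, genes of the forming somite, were detected in 0 cells of either group.

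**Figure D3:**
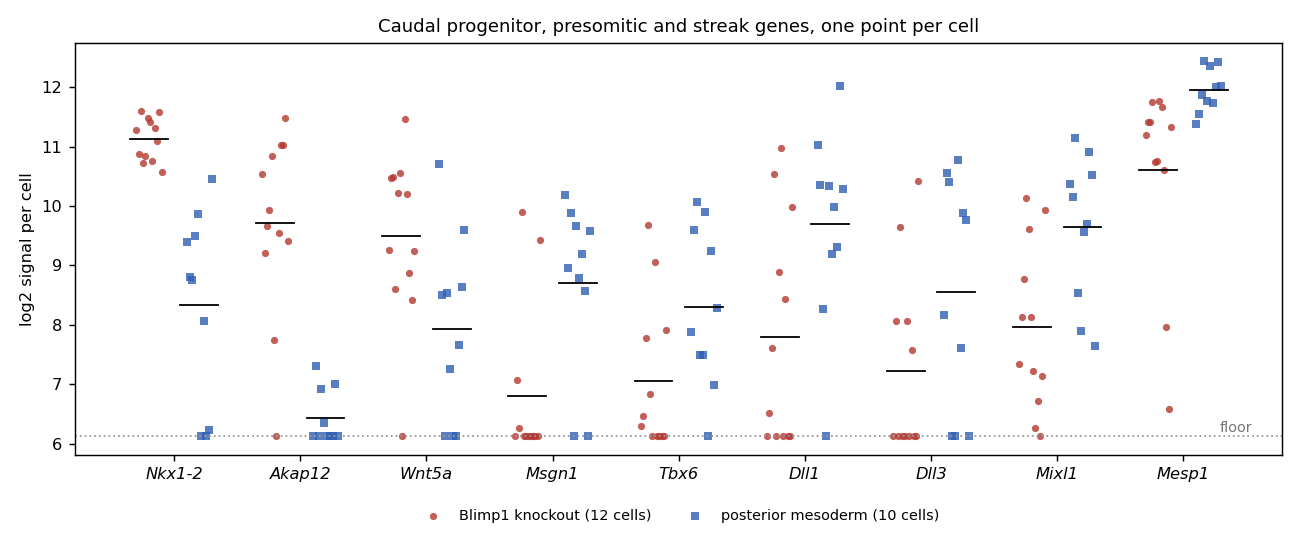
Log2 signal of 9 caudal progenitor, presomitic and streak genes in each of 12 knockout cells (circles, left of each pair) and 10 mesoderm cells (squares), with bars at the means and a dotted line at the floor. Every knockout point of Nkx1-2 lies above every mesoderm point, while Msgn1, Tbx6, Dll1 and Dll3 were detected in 3, 4, 6 and 5 of the 12 knockout cells and have their other knockout points at or near the floor.

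Streak and nascent mesoderm genes had 0 higher and 2 lower members of 12 measured, against 6.89% and 1.29% of all genes. Their median was -0.26. Mixl1, a homeobox factor of the primitive streak, was 6.13, 7.74 and 10.14 in knockout cells, against 7.65, 9.92 and 11.14 in mesoderm cells. Mesp1, which starts the first wave of migrating mesoderm, was 6.58, 11.26 and 11.77 in knockout cells, against 11.37, 11.94 and 12.43 in mesoderm cells. Its difference of -1.35 rested largely on knockout replicates 10 and 11, and it was -0.99 without replicate 11. The mesoderm mean of Mesp1, 11.95, was above the 9 other groups, and that of Mixl1, 9.64, was not. Wild-type Blimp1+ Hoxb1+ cells of this stage averaged 11.45 for Mesp1 and 9.88 for Mixl1. Cdx2 (0.52) and Evx1 (-0.30), homeobox genes of the posterior embryo, were detected in all 22 cells, and Eomes was detected in 0 knockout cells and 1 mesoderm cell.

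Lateral and allantoic genes were close in the group means. Of 16 measured, 0 were higher and 1 was lower, against 6.89% and 1.29% of all genes. The lower one was Gata4, a GATA factor of heart and endoderm (-1.09, detected in 1 of 12 knockout and 6 of 10 mesoderm cells). Hand1 averaged 10.48 ± 1.36 in knockout cells and 10.50 ± 1.49 in mesoderm cells, and Isl1 averaged 9.07 ± 1.77 in knockout cells and 9.28 ± 1.37 in mesoderm cells. Foxf1, a forkhead factor of lateral mesoderm, averaged 8.30 ± 2.45 in knockout cells and 8.52 ± 1.54 in mesoderm cells, a like mean with unlike spread. In knockout cells it was either at the floor, in 6 cells, or between 7.71 and 11.36, in the other 6. No knockout cell in which Foxf1 was detected held Dll1 or Tbx6: of 12 cells, 6 had Foxf1 without Dll1 and 6 had Dll1 without Foxf1. This did not hold for every presomitic gene, since knockout replicate 2 held Foxf1 together with Msgn1 and Dll3. In mesoderm cells the genes were found together, Foxf1 with Dll1 in 7 of 10 cells, with Tbx6 in 7 and with Msgn1 in 6. These gene pairs were picked after their values were seen, so the counts are a description of these cells.

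Other genes were also detected in some knockout cells and not in others. Igf2 was detected in all 6 cells that held Foxf1 and in 5 of the other 6, Kit in 4 and 3, and Cdh11, a cadherin of mesenchymal cells, in 5 and 3. Kit and Msgn1, which were detected in 7 and 3 knockout cells, were found together in 0. Prdm14 was found together with Kit in 4 knockout cells and with Msgn1 in 3. In the heat map the knockout cells with the highest Igf2 and Krt18 (replicates 10 and 11) are those with Cdh1 at the floor and the lowest Mesp1.

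**Figure D4:**
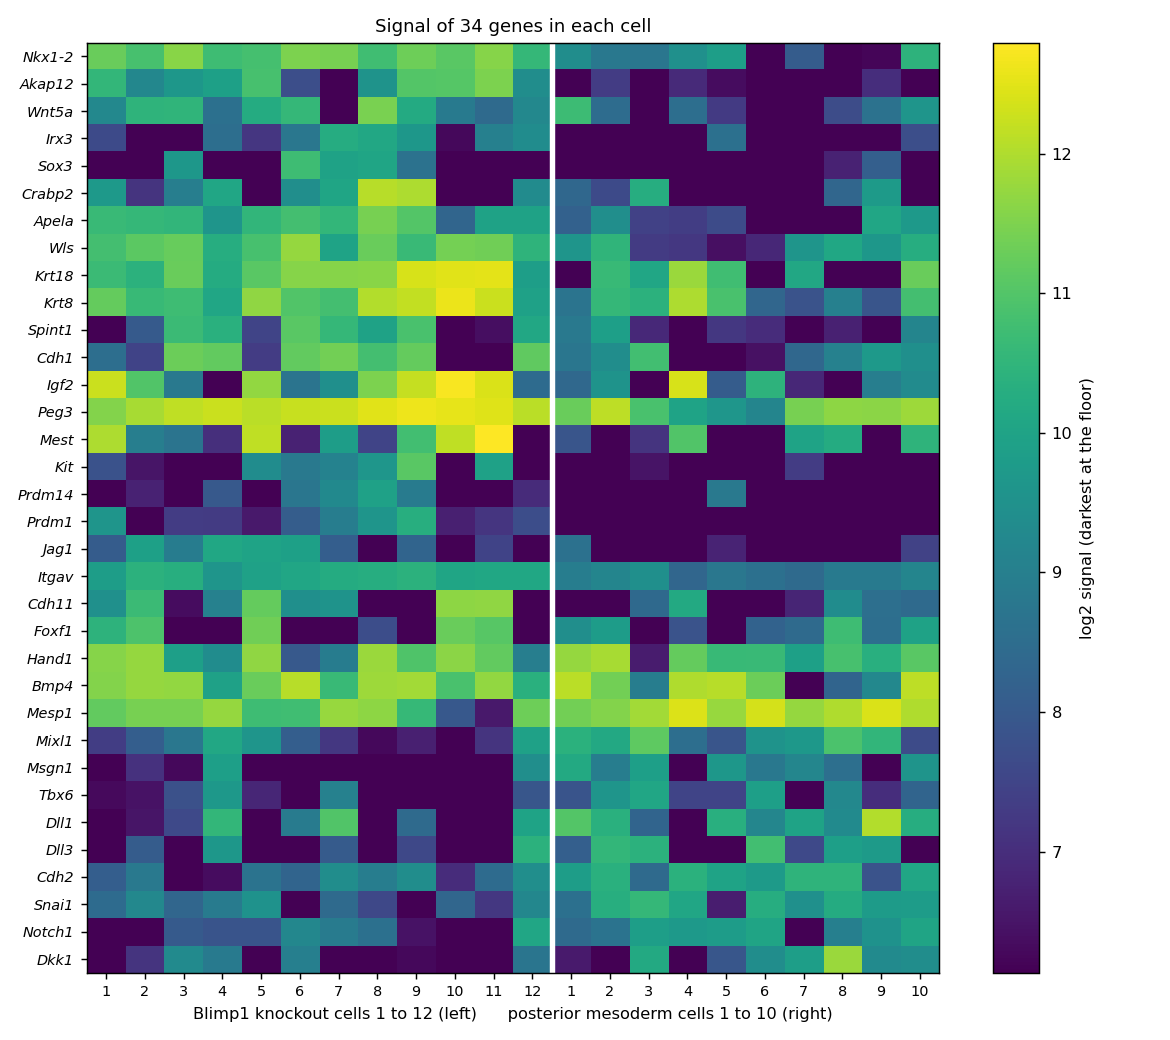
Log2 signal of 34 genes (rows) in 12 knockout cells (left block) and 10 mesoderm cells (right block), on 1 colour scale with the floor darkest. Nkx1-2 and Itgav are bright across the whole left block, whereas Msgn1, Tbx6, Dll1, Dll3 and Foxf1 are bright in only some of its columns.

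Hox genes, which record position along the trunk, were nearly level. Of 33 measured, Hoxd1 (1.09) was higher and 0 were lower, against 6.89% and 1.29% of all genes, with a median of 0.00. Only 21 of the 33 were detected in any knockout or mesoderm cell, and the median over those 21 was 0.03. Leaving out single cells put the Hoxd1 difference between 0.87 and 1.26. Hoxd1 was detected in 7 of 12 knockout and 4 of 10 mesoderm cells. Hoxb1 averaged 9.90 ± 0.79 in knockout cells and 10.85 ± 0.74 in mesoderm cells, but the mesoderm cells were chosen for this transcript. Hoxb2 (0.73) and Hoxb3 (-0.24) were detected in all 12 knockout cells and in 8 and 10 mesoderm cells. Hoxc6 was detected in 3 of 12 knockout cells and in all 10 mesoderm cells, with a difference of -0.71 on low signals.

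Of 15 measured epithelial genes, 7 were higher and 0 were lower, against 6.89% and 1.29% of all genes, and the median difference was 0.86. Krt18, a keratin of simple epithelia, was 9.86, 11.43 and 12.52 in knockout cells (lowest, median and highest), against 6.13, 10.10 and 11.79 in mesoderm cells. Its partner Krt8 was 9.94, 11.11 and 12.60 in knockout cells, against 7.83, 9.72 and 11.98 in mesoderm cells. Both keratins were high in every knockout cell and variable in mesoderm cells, where Krt18 was undetected in 4 of 10. Wild-type Blimp1+ Hoxb1+ cells averaged 11.05 for Krt18 and 10.46 for Krt8.

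Cdh1, the epithelial cadherin, was 6.13, 10.98 and 11.37 in knockout cells, against 6.13, 8.91 and 10.79 in mesoderm cells. It fell into separate levels in knockout cells, 10.79 or higher in 7 cells and 8.54 or lower in the other 5. Spint1 (1.58) and Spint2 (1.0003), membrane protease inhibitors, Esrp1 (1.12), a splicing regulator of epithelia, and Cldn6 (1.03), a tight junction protein, were the other higher members. Epcam differed by 0.86 and Grhl2 by 0.20. After the cell medians were set equal only Krt18, Krt8 and Spint1 stayed past 1 log2 unit, and after quantile normalisation 4 members did. Single cells moved the count between 3 and 8: it was 3 without knockout replicate 3 or 9 and 4 without knockout replicate 4, 6, 7 or 12. Without mesoderm replicates 5 and 6 it was 4, and with only cells holding a Y-linked transcript it was 3. For all 7 genes the mesoderm mean lay inside the range of the other groups, and the knockout means of Krt18 and Krt8 were above it.

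Of 14 measured mesenchymal genes, 4 were higher and 2 were lower, against 6.89% and 1.29% of all genes, with a median of 0.15. Cdh2, the neural cadherin that nascent mesoderm takes on, averaged 8.26 ± 1.16 in knockout cells and 9.76 ± 0.91 in mesoderm cells. Snai1, a repressor of Cdh1 during gastrulation, averaged 8.12 ± 1.14 in knockout cells and 9.58 ± 1.17 in mesoderm cells. The higher members were Cdh11 (1.33), Snai2 (1.26), Zeb2 (1.17) and Pdgfrb (1.02), a receptor of platelet-derived growth factor. Snai2 was detected in 8 of 12 knockout cells and 1 of 10 mesoderm cells, and Zeb2, another repressor of Cdh1, in 7 and 1. Vim (0.35) and Fn1 (0.12), abundant mesenchymal products, were detected in all 22 cells. For Cdh2 and Snai1 the mesoderm mean was above all 9 other groups, and for the 4 higher members it was inside their range.

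Matrix and adhesion genes had 3 higher and 0 lower of 17, with a median of 0.39. Of broadly detected genes 15.5% were higher and 2.40% lower, so this count was near that share. Itgav, an integrin subunit, was 9.61, 10.09 and 10.42 in knockout cells, against 8.33, 8.86 and 9.46 in mesoderm cells. The groups did not overlap, and the mesoderm mean of 8.86 was below every other group (9.95 to 10.41). Lamc1 (1.20), a laminin chain, and Sparc (1.19), a secreted calcium-binding protein, were the others; the mesoderm mean of Sparc was also below all 9 other groups.

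Imprinted genes had 6 higher and 1 lower of 12 measured, against 6.89% and 1.29% of all genes, with a median of 0.93. Without mesoderm replicates 5 and 6, those with the fewest detected probe sets, 2 were higher (Igf2 and Meg3) and 0 lower, with a median of 0.77. Igf2, a growth factor expressed from the paternal copy, was 6.13, 11.23 and 12.72 in knockout cells, against 6.13, 8.68 and 12.38 in mesoderm cells. Peg3, a zinc finger gene also expressed from the paternal copy, was 11.56, 12.25 and 12.62 in knockout cells, against 9.16, 11.35 and 12.13 in mesoderm cells. Both genes overlapped between the groups, Igf2 over nearly its whole range and Peg3 in the upper part. Mest (1.45), Impact (1.26), Plagl1 (1.14) and Meg3 (1.01), a maternally expressed non-coding RNA, were the others. Dlk1, which lies in the same imprinted domain as Meg3, was lower by the group means (-1.05) and was detected in 2 of 12 knockout and 5 of 10 mesoderm cells. With the mean of all probe sets in place of the brightest, 1 member was higher and the median was 0.34. The mesoderm mean was below all 9 other groups for Impact and inside their range for the other 6. Igf2 averaged 10.44 in the wild-type Blimp1+ Hoxb1+ cells of the same stage.

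**Figure D5:**
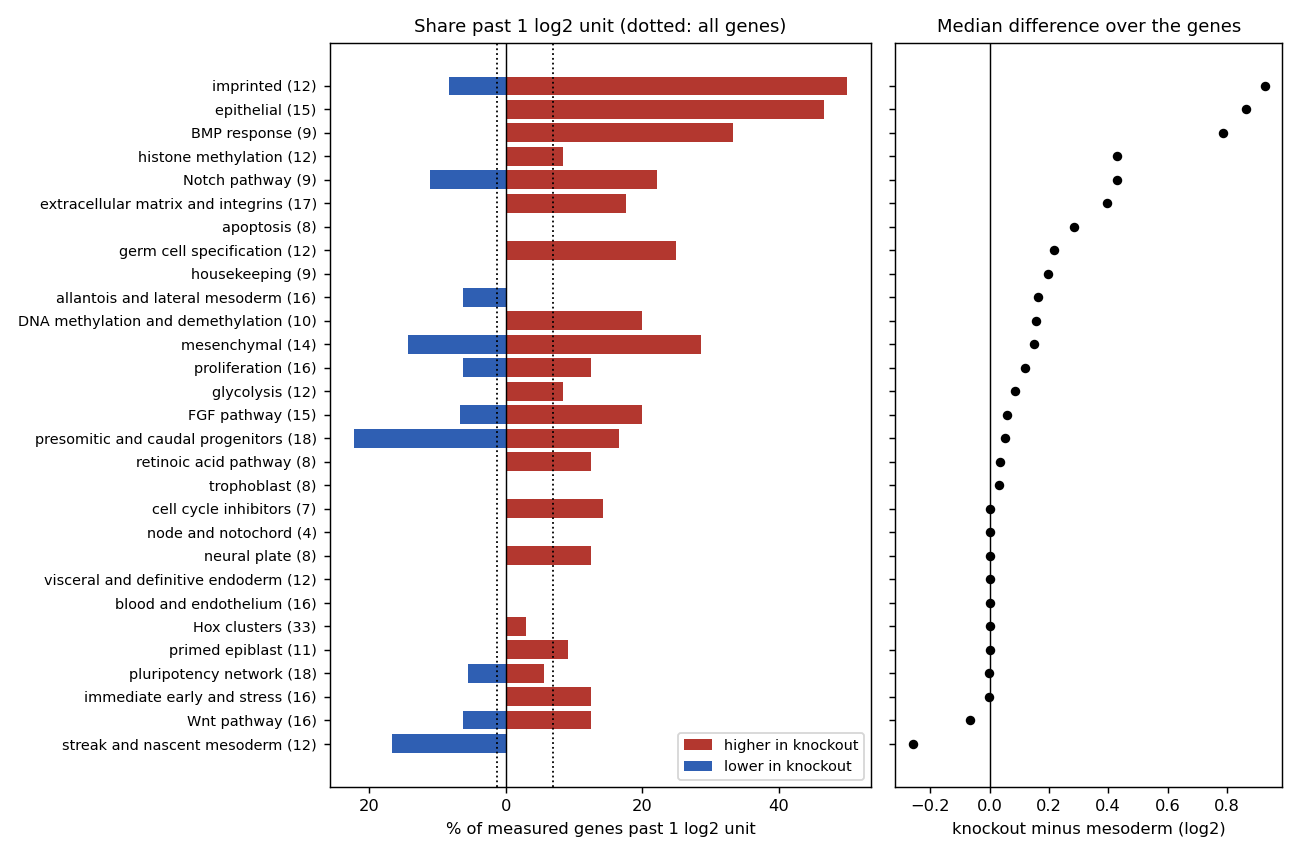
Left: percent of the measured genes of each list (number in brackets) at least 1 log2 unit higher (right of 0) or lower (left of 0) in 12 knockout cells than in 10 mesoderm cells, with dotted lines at the shares over all genes (6.89% and 1.29%). Right: the median difference of each list in log2 units; imprinted (0.93), epithelial (0.86) and BMP response (0.79) genes have the highest medians, and streak genes the lowest (-0.26).

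Each signalling list had members past 1 log2 unit, as did 15.5% (higher) and 2.40% (lower) of broadly detected genes. Among 9 BMP response genes, 3 were higher and 0 were lower, against 6.89% and 1.29% of all genes, with a median of 0.79. They were Msx1 (1.35), a homeobox target, and Id2 (1.21) and Id4 (1.15), inhibitors of helix-loop-helix factors. Single cells moved the count between 2 and 4, and 1 gene stayed past 1 log2 unit after the cell medians were set equal. Msx1 fell under 1 log2 unit without mesoderm replicate 7. Id1 (-0.54) and Id3 (0.00) were detected in all 22 cells, and the ligand Bmp4 averaged 11.30 ± 0.68 in knockout cells and 10.36 ± 2.08 in mesoderm cells. Bmp4 was undetected in mesoderm replicate 7, and leaving out single cells put its difference between 0.47 and 1.14. Of 16 Wnt genes, Wls, which carries Wnt proteins to the surface, was 9.995, 10.988 and 11.747 in knockout cells, against 6.40, 9.61 and 10.49 in mesoderm cells. Notum (1.21), which inactivates Wnt proteins, was also higher, and the secreted antagonist Dkk1 was lower (-1.50; detected in 5 of 12 knockout and 7 of 10 mesoderm cells).

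Among 15 FGF genes, 3 feedback inhibitors were higher, Spry2 (1.59), Il17rd (1.28) and Dusp6 (1.01), and the ligand Fgf3 was lower (-1.16). Of broadly detected genes 15.5% were higher and 2.40% lower. Fgf3 was 6.13, 8.94 and 11.39 in knockout cells, against 8.37, 10.23 and 11.01 in mesoderm cells, so it varied more among knockout cells. Among 9 Notch genes, the ligand Jag1 (1.68) and the target Hey2 (1.01) were higher and the receptor Notch1 was lower (-1.49). Jag1 was detected in 9 of 12 knockout and 2 of 10 mesoderm cells, and Hey2 in 5 and 0. Crabp2, a retinoic acid binding protein, was 6.13, 9.38 and 12.09 in knockout cells, against 6.13, 6.88 and 10.28 in mesoderm cells. It was the only one of 8 retinoic acid genes past 1 log2 unit. For Dkk1, Fgf3 and Notch1 the mesoderm mean was above all 9 other groups, and for Il17rd and Dusp6 it was below all of them. The knockout mean of Dusp6 was also below all 9 other groups, so Dusp6 was higher only relative to the mesoderm cells. Without mesoderm replicates 5 and 6, Spry2 alone of the FGF genes was higher by 1 log2 unit.

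Of 12 germ cell genes, 3 were higher and 0 were lower, against 6.89% and 1.29% of all genes, with a median of 0.22. One of them, Prdm1, is the transcript by which both groups were chosen. Prdm1 was 6.13, 7.52 and 10.32 in knockout cells, against 6.13 in every mesoderm cell, and was detected in 9 of 12 knockout cells (42.8% to 94.5%) and 0 of 10 mesoderm cells (0% to 30.8%). In the knockout cells it comes from the null allele, and the position of the probes relative to the deletion is not given in the sources used here, so it checks the labels only in part. Kit, the receptor of stem cell factor, was 6.13, 8.31 and 11.10 in knockout cells, against 6.13, 6.13 and 7.31 in mesoderm cells. Prdm14, a partner of Blimp1 in germ cell formation, was 6.13, 6.86 and 9.94 in knockout cells, against 6.13, 6.13 and 8.82 in mesoderm cells. Both were detected in 7 of 12 knockout cells and 1 of 10 mesoderm cells, and wild-type germ cells of the same stage averaged 10.25 for Kit and 10.84 for Prdm14. Leaving out single cells put the Prdm14 difference between 0.81 and 1.31, and it fell under 1 log2 unit with cell medians set equal. Kit fell under 1 log2 unit with the mean of probe sets, since its second probe set was at the floor in both groups.

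Dppa3, which marks established germ cells, was detected in 4 of 12 knockout and 0 of 10 mesoderm cells at a highest signal of 8.29, and Tfap2c in 6 and 3. The Ifitm genes of early germ cell competence differed by 0.16 to 0.25. Of 18 pluripotency genes, Nanog (1.10, detected in 5 of 12 knockout and 2 of 10 mesoderm cells) was higher and Tdgf1 (-1.04) lower. The shares over all genes were 6.89% and 1.29%. Pou5f1 averaged 9.41 ± 1.25 in knockout cells and 9.85 ± 0.91 in mesoderm cells, both chosen for it. Sox3 (1.27), of the primed epiblast and neural plate, was detected in 5 knockout cells and 1 mesoderm cell, and Irx3 (1.72), of the neural plate and caudal epiblast, in 9 and 2.

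Growth and chromatin genes made up the rest, beside shares of 15.5% higher and 2.40% lower over broadly detected genes. Of 16 proliferation genes, Mki67 (2.05) and Bub1 (1.66), which act in mitosis, were higher and Gins2 (-1.0007), a replication factor, was lower, with a median of 0.12. The inhibitor Cdkn1b was detected in 10 of 12 knockout and 1 of 10 mesoderm cells, with a difference of 1.87. Slc2a3, a glucose transporter, was 9.61, 12.76 and 13.02 in knockout cells, against 7.59, 10.39 and 12.02 in mesoderm cells, and was the only one of 12 glycolysis genes past 1 log2 unit. Tet1 (1.22), which oxidises methylated cytosine, Uhrf1 (1.03), which maintains DNA methylation, and Setdb1 (1.13), a histone methyltransferase, were higher. For Mki67, Bub1, Cdkn1b, Slc2a3, Tet1, Setdb1 and Nr4a1 the mesoderm mean was below all 9 other groups, and for Gins2 it was above them. Of 16 immediate early and stress genes, Myc (1.28) and Nr4a1 (1.09) were higher, and 0 of 9 housekeeping genes differed by 1 log2 unit.

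Outside the 30 largest differences, 48 list members were higher, with the mesoderm mean below all 9 other groups for 13 and inside their range for 35, and 13 were lower, with it above for 9 and inside for 4. Over all genes, the differences with the mesoderm mean inside that range were led by Nkx1-2, Myh9, Apela, Ghr (2.41), Krt18, Prc1 (2.37), Greb1l (2.31), Zfp462 (2.20) and Wls on the higher side; these were singled out after their values were seen. Ghr is the growth hormone receptor and Prc1 a spindle midzone protein. On the lower side they were led by Mixl1, Ccne1 (-1.60), a cyclin of the start of replication, Hacd1 (-1.60), Cited1 (-1.56), a coactivator of early mesoderm and extraembryonic tissue, and Chst7 (-1.54). Wild-type Blimp1+ Hoxb1+ cells of the same stage, whose arrays had ordinary spike levels, averaged 10.51 for Nkx1-2, 10.38 for Apela, 10.78 for Wls, 6.57 for Msgn1 and 7.07 for Dll1. The knockout means were 11.13, 10.32, 10.94, 6.81 and 7.80 and the mesoderm means 8.33, 7.83, 8.75, 8.71 and 9.69 for the same genes. These genes are a selection, and for Msgn1 and Dll1 the mesoderm mean was above all 9 other groups. Mixl1 went the other way: the mean of these wild-type cells, given above, exceeded the mesoderm mean of 9.64, while the knockout mean was 7.96.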

How the data were processed

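The deposited values are linear intensity from MAS5, per the submitters' processing notes, with 1 value for each probe set in each cell. The version and scaling target of MAS5 were not given in the labels or file. The arrays had 45101 probe sets, of which 34945 had 1 gene symbol in the platform annotation, giving 18193 genes; 932 probe sets with several symbols and 9160 unnamed ones were left out, as were 64 controls. The probe set with the highest mean over all cells stood for its gene. Background came from 126 probe sets for chemosensory receptors (olfactory, vomeronasal, taste) and keratin-associated proteins of hair. Signals under the median of their 90th percentiles (70.2) were raised to it before log2. Detection limits, their 95th percentiles, lay between 94.0 and 166 in the 22 cells. For a lower bound of fold, a group with 0 detected cells was set to the detection limit of each array.

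Groups were taken from sample titles. Genes named are the 15 largest differences each way among those detected in 75% of the higher group, and members of 31 lists (380 of 407 symbols measured). Members and lists were chosen with earlier results of these data known. With no embryo named in the labels, p-values were not computed; exact (Clopper-Pearson) intervals cover counting error in cells only. Amplification from 1 cell loses rare transcripts, and the number of arrays limits precision. The calculation was tested on simulated data. Alternatives changed the floor, probe set rule, scaling, detection limit and cells used. Upstream bases came from the RefSeq table of GRCm38.p6, which held 297 of the 405 named genes; no sequence was converted between builds. Tools were Python 3.11.15, pandas 2.3.3, NumPy 2.4.6, SciPy 1.17.1 and matplotlib 3.10.9.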

Additional observations from a re-analysis of the deposited data

Results flagged for a closer look

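Within the 10 mesoderm cells, 69 sets of values were examined (list means, array measures and the 30 genes with the largest differences), and in 6 of them 1 cell lay far from the others by Dixon's ratio; chance flags about 1 in 20 groups. The knockout group, with 12 cells, was not examined, because the limits used for the ratio stop at 10 cells. The highest cell for the mean of the primed epiblast genes reached 7.34, against a median of 6.65. The highest cell for the mean of the cell cycle inhibitors reached 8.17, against a median of 6.86. The highest cell for Arhgap29 reached 8.46, against a median at the floor of 6.13. The lowest cell for Car3 stood at 6.77, against a median of 10.18, and the lowest cell for Efna4 at the floor of 6.13, against a median of 8.37. The highest detection limit among mesoderm arrays was a signal of 166, against a median of 125.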

How the results depend on the processing

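With 1 sample per group nothing here was tested, and the array measures differ with the group. Without any floor, 3745 genes were higher and 1074 lower; list medians became 0.34 for primed epiblast, 1.65 for epithelial, 0.57 for DNA methylation, -0.22 for blood and endothelium, 0.21 for endoderm, 0.74 for trophoblast, -0.40 for neural plate, 0.10 for node, 0.72 for cell cycle inhibitors, 0.99 for apoptosis and 0.94 for sex-linked genes. With the floor at the 99th percentile of background, 356 were higher and 33 lower, and 52 of 91 named genes past 1 log2 unit fell under it. With the mean of probe sets, 464 were higher and 128 lower, the imprinted median was 0.34, and 43 of the 91 fell under it, Nkx1-2 among them. With cell medians set equal, 776 were higher and 582 lower, and medians were -0.23 for pluripotency, primed epiblast, Hox, blood and endothelium, endoderm, neural plate and node genes and -0.075 for DNA methylation. Scaling to the spiked lys control moved the node median to -0.11. Quantile normalisation gave 505 lower genes. Detection at the 99th percentile left the differences as they were, by construction, and 689 higher and 105 lower genes (in place of 1075 and 192) detected in 75% of the higher group. Restricting to genes with the mesoderm mean inside the range of the other groups, chosen after seeing the data, left 386 higher and 78 lower. Leaving out single cells gave 1073 to 1403 higher and 228 to 286 lower genes, and put 24 of the 91 named genes under 1 log2 unit in at least 1 case. Mesoderm replicates 5 and 6, also chosen after seeing the data, had the fewest probe sets above the 99th percentile of background. Leaving out these 2 cells gave 947 higher and 258 lower genes. It left 4 epithelial, 2 imprinted and 1 FGF gene higher, in place of 7, 6 and 3. None of the 91 changed sign under any alternative run. The cause of these shifts was not tested, beyond what a floor, a filter or a subset fixes by construction. No paired analysis was possible because replicate numbers only name cells and the result comes from no test.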
